A study of Mus musculus with 15 samples.

Results

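The neuronal nicotinic acetylcholine receptor subunits were followed in nuclei sorted from the mouse ventral tegmental area. The 8 genes are Chrna3, Chrna4, Chrna5, Chrna6, Chrna7, Chrnb2, Chrnb3 and Chrnb4, taken by symbol from a table of 35976 gene rows, and each symbol was found in 1 row. Nicotinic receptors are pentameric cation channels opened by acetylcholine and by nicotine. Alpha4 and alpha6 form binding sites together with beta2, alpha7 can form receptors on its own, and alpha5 and beta3 take an accessory place in the pentamer. On midbrain dopamine neurons these receptors sit on the cell body and on the axon terminal, where they change firing and dopamine release.

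All libraries came from male mice, 8 to 12 weeks old and heterozygous for Cre at the dopamine transporter gene Slc6a3 (DAT-Cre), which had received AAV5-DIO-KASH-HA in the ventral tegmental area. This virus puts an HA tag on the nuclear envelope of Cre-expressing cells, so HA-positive nuclei were collected as dopaminergic and HA-negative nuclei as non-dopaminergic (a dopaminergic nucleus the virus did not reach would fall in the latter), from pooled tissue of 2 mice per sample. The food-trained groups (4 dopaminergic and 4 non-dopaminergic libraries) were taken after 7 days of operant food training. The maintenance group (3 dopaminergic libraries) was taken after food training, 5 daily cocaine sessions at 0.3 mg/kg per infusion and 10 at 1.0 mg/kg per infusion, each of 1 hour, and the abstinence group (4 dopaminergic libraries) after a further 21 days in the home cage without cocaine. Every group carried the Cre allele, the virus and the food training, and no group had saline self-administration. The labels do not say more about the independence of replicates than the pools of 2 mice, so p-values measure the spread between these libraries.

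Libraries held 25813697 to 59046618 counts, with 14841 to 19750 genes detected in dopaminergic and 22733 to 23886 in non-dopaminergic libraries. The summed level of 11 dopamine neuron markers was 5254 CPM (counts scaled to library size) or more in every dopaminergic library and at most 506.5 CPM in the non-dopaminergic ones, and none of the 11 was at 0 in all libraries of any group. The 9 oligodendrocyte markers summed to 1066 to 2740 CPM in dopaminergic and 8874 CPM or more in non-dopaminergic libraries, so the latter are a mixture of cell types. The slope of expression on GC content set the 3 maintenance libraries (-0.0379 to -0.0225 log2 CPM per percent GC) below the other 8 dopaminergic libraries (-0.0166 to 0.0205). Non-dopaminergic replicate 2 (-0.0247) likewise lay below the other 3 of its group (0.0210 to 0.0324).

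Chrna6 was the most abundant subunit transcript in each of the 11 dopaminergic libraries by CPM, and Chrna6 and Chrnb3 had the highest fold changes of the 8 genes between the populations. Alpha6 is a subunit of midbrain dopamine and other catecholamine neurons, and beta3 is its usual accessory partner. Their genes are convergent neighbours on chromosome 8 (GENCODE M21, GRCm38), Chrnb3 at chr8:27368711-27399730 on the plus strand and Chrna6 at chr8:27403212-27413944 on the minus strand, with 3481 bases between them. Chrna6 stood at 529, 833, 617 and 1176 CPM in food-trained dopaminergic replicates 1 to 4 and at 29.6, 34.7, 18.5 and 29.6 CPM in the non-dopaminergic replicates. Its lowest dopaminergic library was far above its highest non-dopaminergic one. The log2 fold change was 4.82 ± 0.35 (SE), 28.3-fold (95% interval 16.4 to 48.6, adjusted p = 0.000651, edgeR quasi-likelihood test with Benjamini-Hochberg adjustment over 19786 genes). Among those genes Chrna6 ranked 6th by p-value and 10th by fold change. Chrnb3 stood at 363, 535, 453 and 852 CPM in dopaminergic and 21.1, 42.2, 17.5 and 18.9 CPM in non-dopaminergic replicates, and these ranges did not overlap either. Its log2 fold change was 4.48 ± 0.41 (SE), 22.3-fold (adjusted p = 0.00135, same test). In bulk nuclei, fewer cells of a type and less RNA per cell cannot be told apart.

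Chrna3, Chrna5 and Chrnb4 are packed in 1 cluster on chromosome 9. Chrna3 and Chrna5 were called higher in dopaminergic nuclei, and Chrnb4 was too uneven to be placed with or against them. Alpha3 and beta4 are the ganglionic pair, also strong in the medial habenula, and alpha5 joins receptors of either family. Chrna5 lies at chr9:54980880-55007779 (plus strand), Chrna3 at chr9:55010111-55026562 and Chrnb4 at chr9:55028154-55048779 (both minus strand), with gaps of 2331 and 1591 bases. The promoters of these genes are shown as a description, 300 bases each from RefSeq (GRCm38.p6), written along the gene's strand. Capitals mark GGGCGG on either strand, the GC box of Sp-family factors, and CAGCTG, an E-box. Both motifs were chosen after the promoters had been read, so their counts are no test, and their part in the levels was not tested. For Chrna5 the second of its 2 listed starts is shown (chr9:54981238-54981537, plus strand), with Chrna3 at chr9:55026513-55026812 and Chrnb4 at chr9:55048495-55048794, both on the minus strand. The first Chrna5 window (chr9:54980630-54980929), not shown, holds the GENCODE start of the gene.
Chrna5: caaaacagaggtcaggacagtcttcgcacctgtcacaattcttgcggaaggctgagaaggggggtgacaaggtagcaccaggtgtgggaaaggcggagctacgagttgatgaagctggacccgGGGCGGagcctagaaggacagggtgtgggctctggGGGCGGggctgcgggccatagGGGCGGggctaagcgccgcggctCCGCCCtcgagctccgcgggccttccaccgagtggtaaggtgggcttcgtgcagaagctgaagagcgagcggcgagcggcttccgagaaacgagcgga
Chrna3: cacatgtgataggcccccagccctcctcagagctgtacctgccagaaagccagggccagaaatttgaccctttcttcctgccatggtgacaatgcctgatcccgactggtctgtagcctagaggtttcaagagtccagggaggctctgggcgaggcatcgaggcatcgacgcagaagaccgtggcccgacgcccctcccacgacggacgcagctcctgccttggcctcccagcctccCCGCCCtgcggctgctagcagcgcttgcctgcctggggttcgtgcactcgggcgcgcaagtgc
Chrnb4: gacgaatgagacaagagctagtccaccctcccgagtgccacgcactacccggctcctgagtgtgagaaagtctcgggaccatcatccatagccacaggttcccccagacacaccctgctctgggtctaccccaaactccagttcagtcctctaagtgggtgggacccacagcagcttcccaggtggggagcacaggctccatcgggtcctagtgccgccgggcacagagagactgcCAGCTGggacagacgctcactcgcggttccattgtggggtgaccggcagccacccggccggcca
GGGCGG occurred 4 times in the shown Chrna5 window, 0 times in its first window and 1 time in that of Chrna3. It was not in that of Chrnb4, which held 1 CAGCTG. The contrast of Chrna5 with its neighbours thus depends on the window. Of the 7 promoter entries of 6 members, 5 held GGGCGG (Chrna3, Chrna4, Chrnb2, Chrna7 and the shown window of Chrna5, but not its first window), as did 35.7% of all 32851 promoters of this length, and 16.3% of all held CAGCTG. The NR4A response element AAAGGTCA (1.51% of all promoters), the homeodomain motif TAATCC (7.06%) and the forkhead motif TGTTTAC (3.65%), each searched on both strands, were in no window of these 6 members. The 5 windows with GGGCGG had 59% to 74.3% GC, against a median of 52.7% over all promoters. Chrna6 and Chrnb3 had no entry.

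Chrna5 and Chrna3, at lower levels, were also higher in dopaminergic nuclei. Chrna5 stood at 9.67, 32.0, 20.1 and 34.9 CPM in the food-trained dopaminergic replicates against 2.48, 2.73, 1.45 and 1.02 CPM in the non-dopaminergic ones, with no overlap. Its log2 fold change was 3.66 ± 0.61 (SE), 12.7-fold (adjusted p = 0.00670, edgeR). Chrna5 was called in 18 of 20 alternatives, and its highest adjusted p was 0.0577, in edgeR with a block for replicate number. Chrna3 stood at 71.6, 59.8, 21.4 and 123 CPM against 11.4, 11.2, 7.54 and 8.64 CPM, again without overlap. It was 7.14-fold higher (log2 2.84 ± 0.49 SE, adjusted p = 0.00670, edgeR). RefSeq extends Chrna5 1304 bases into Chrna3 on the opposite strand, and whether reads were counted by strand is not given in the sources used here, so reads of that stretch could belong to either gene.

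Chrnb4 was scarce and uneven. It had 0, 295, 0 and 0 counts in food-trained dopaminergic replicates 1 to 4, or 8.40 CPM in replicate 2, where a count of 0 allows up to 0.0518 to 0.108 CPM (3 counts per library). The non-dopaminergic replicates held 3.31, 1.81, 0.747 and 3.31 CPM of Chrnb4. The single dopaminergic library with reads thus lay above all 4 non-dopaminergic ones and the 3 others below them. The fitted log2 difference of -0.11 ± 2.13 (SE) was not called (adjusted p = 0.986, edgeR), and its 95% interval ran from -4.94 to 4.71. Without dopaminergic replicate 2 the same test called Chrnb4 lower in dopaminergic nuclei (adjusted p = 0.0133; at least 30.5-fold at the floor of 3 counts per library), and limma-voom with quality weights called it lower with all 8 libraries (0.0261), so its call depends on this library and on the test. Both nicotinic neighbours in the cluster were called in the same libraries.

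The alpha4, beta2 and alpha7 genes differed less between the populations. Alpha4 with beta2 forms the common high-affinity receptor of the brain. Chrna4 (chr2:181018380-181043546, minus strand) stood at 361, 325, 271 and 667 CPM in dopaminergic and 99.0, 70.0, 78.3 and 117 CPM in non-dopaminergic replicates, without overlap. It was 4.49-fold higher (log2 2.17 ± 0.32 SE, adjusted p = 0.00670, edgeR). Chrnb2 (chr3:89746195-89764632, minus strand) stood at 178, 170, 152 and 336 CPM against 113, 77.4, 97.5 and 139 CPM. Each dopaminergic library was above each non-dopaminergic one, yet the difference of 0.98 ± 0.30 (SE) on the log2 scale missed the threshold (adjusted p = 0.0655, unadjusted 0.00932, edgeR; 95% interval of the fold 1.24 to 3.14). Chrnb2 was called in 7 of 20 alternatives. Among them were DESeq2 (adjusted p = 0.0115), upper quartile scaling (0.0456), a minimum of 10 counts (0.0396), GC correction (0.0268) and the fit without dopaminergic replicate 3 (0.0345). Its log2 difference fell to 0.25 with scaling to pan-neuronal markers (0.579). Chrna7 (chr7:63098692-63212569, minus strand), the subunit of homomeric receptors, stood at 19.9, 24.7, 23.3 and 42.8 CPM against 4.85, 2.90, 5.16 and 13.3 CPM. The groups did not overlap, and Chrna7 was called 4.25-fold higher (log2 2.09 ± 0.55 SE, adjusted p = 0.0373, edgeR). Chrna7 was called in 11 of 20 alternatives, among them 4 of the 9 that left out libraries. That call was lost without dopaminergic replicate 4 (adjusted p = 0.0754) and without non-dopaminergic replicate 1, 2 or 3 (0.108, 0.0718 and 0.104), and without non-dopaminergic replicate 4 the log2 fold change was 2.69 (0.0187).

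Across the 8 genes, all of which passed the filter on low counts, 6 were called higher in dopaminergic nuclei and none lower, against 3.63% of all 19786 tested genes called higher. The median log2 fold change of the members was 2.50 and that of all tested genes -0.21. In 5 members (Chrna3, Chrna4, Chrna5, Chrna6 and Chrnb3) every one of the 11 dopaminergic libraries lay above all 4 non-dopaminergic libraries, which held for 2.83% of tested genes. Chrna7 and Chrnb2 were separated in the food-trained libraries alone. Where food-trained groups are said not to overlap, the share of all genes so separated was not computed. The 10 pan-neuronal markers summed to 4452 to 7651 CPM in dopaminergic and 2410 to 3399 CPM in non-dopaminergic libraries. Scaling the libraries to these markers moved the median of all genes by -0.71 and the split of calls from 719 higher and 1815 lower to 121 higher and 3992 lower. Under it Chrna6 kept a log2 fold change of 4.10 and 5 members stayed called higher, whereas Chrna7 (1.41, adjusted p = 0.102) did not.

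**Figure D1:**
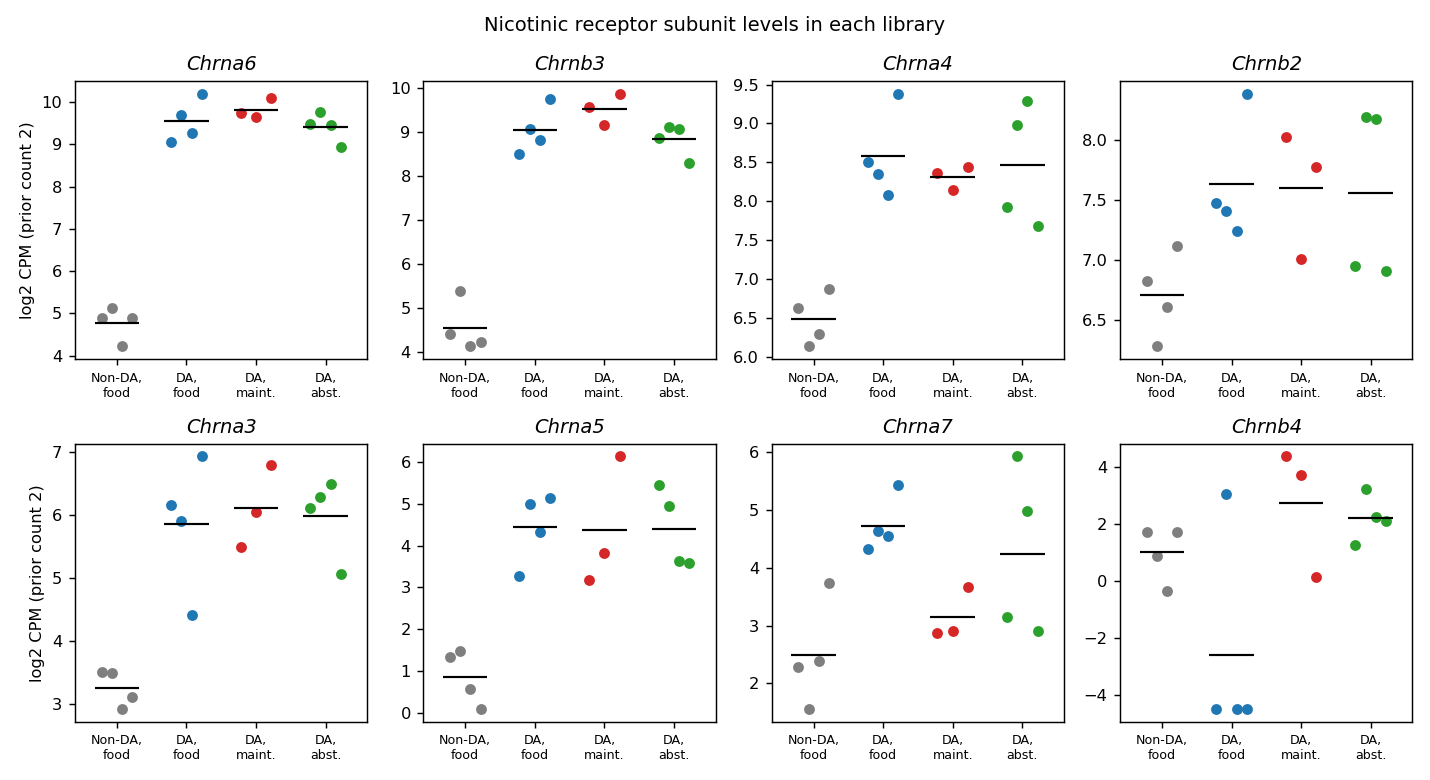
Level of each subunit gene (vertical axis, log2 CPM with a prior count of 2, own scale per panel) in each library of the 4 groups (Non-DA and DA, non-dopaminergic and dopaminergic; food, food-trained; maint., maintenance; abst., abstinence). Points are libraries and lines group means; the 11 dopaminergic points lie above the 4 non-dopaminergic ones for Chrna6, Chrnb3, Chrna4, Chrna3 and Chrna5, and 3 of 4 food-trained dopaminergic libraries have no Chrnb4 count.

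The non-dopaminergic level, as a percentage of the food-trained dopaminergic level, ordered the subunits further. It was 3.57% for Chrna6, 4.53% for Chrnb3 and 7.95% for Chrna5, then 14.1% for Chrna3, 22.4% for Chrna4, 23.7% for Chrna7 and 51.1% for Chrnb2. Chrnb4 has no place in this order, since its 109% rests on the reads of 1 dopaminergic library. The same percentage was 3.10% for Slc6a3, the dopamine transporter, and had a median of 6.11% over the 11 dopamine neuron markers (highest 33.5%, Foxa1). Over the 10 pan-neuronal markers its median was 52.5% (37.0% to 228%). Chrna6, Chrnb3, Chrna5 and Chrna3 lay below the second highest of the dopamine neuron markers (16.5%, Nr4a2), Chrna4 between it and Foxa1, and Chrnb2 near the median of the pan-neuronal markers. Chrna7 has no firm place among these markers, since non-dopaminergic replicate 4 held 13.3 CPM and the other 3 held 2.90 to 5.16 CPM. How much dopaminergic RNA contributes to the non-dopaminergic libraries was not tested.

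Levels were compared between genes per kilobase of the longest GENCODE transcript. In food-trained dopaminergic nuclei Chrna6 led at 271 ± 99.1 CPM per kilobase (SD, n = 4), followed by Chrnb3 (120 ± 46.4), Chrna4 (89.0 ± 39.0), Chrnb2 (32.7 ± 13.3), Chrna3 (15.8 ± 9.58), Chrna5 (9.88 ± 4.73), Chrna7 (9.83 ± 3.66) and Chrnb4 (0.564 ± 1.13). Means of the neighbours Chrnb3 and Chrna4, Chrna3 and Chrna5, and Chrna5 and Chrna7 differed by less than the larger of their SDs. Non-dopaminergic nuclei had another order, led by Chrna4 (19.9 ± 4.63) and Chrnb2 (16.7 ± 4.06), which overlapped and changed places with coding length (47.4 and 49.0), with Chrna6 at 9.68 ± 2.35 and Chrnb3 at 5.43 ± 2.53.

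Expressed as shares of the summed per-kilobase level of the 8 genes, Chrna6 made up 49.5% ± 3.22 (SD, n = 4) in food-trained dopaminergic and 16.8% ± 3.85 in non-dopaminergic libraries. Chrnb3 made up 21.8% ± 1.54 and 9.69% ± 5.03. Chrna4 went the other way, at 16.2% ± 3.06 and 34.4% ± 3.96. The share of Chrnb2 was 5.97% ± 0.883 in dopaminergic and 28.9% ± 4.43 in non-dopaminergic libraries, and for each of these 4 genes the ranges of the food-trained groups did not overlap. With coding length in place of transcript length the dopaminergic share of Chrna6 was 40.5%, that of Chrnb3 30.0% and that of Chrnb2 7.30%, and the non-dopaminergic shares of Chrna4 and Chrnb2 were 32.1% and 33.2%.

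**Figure D2:**
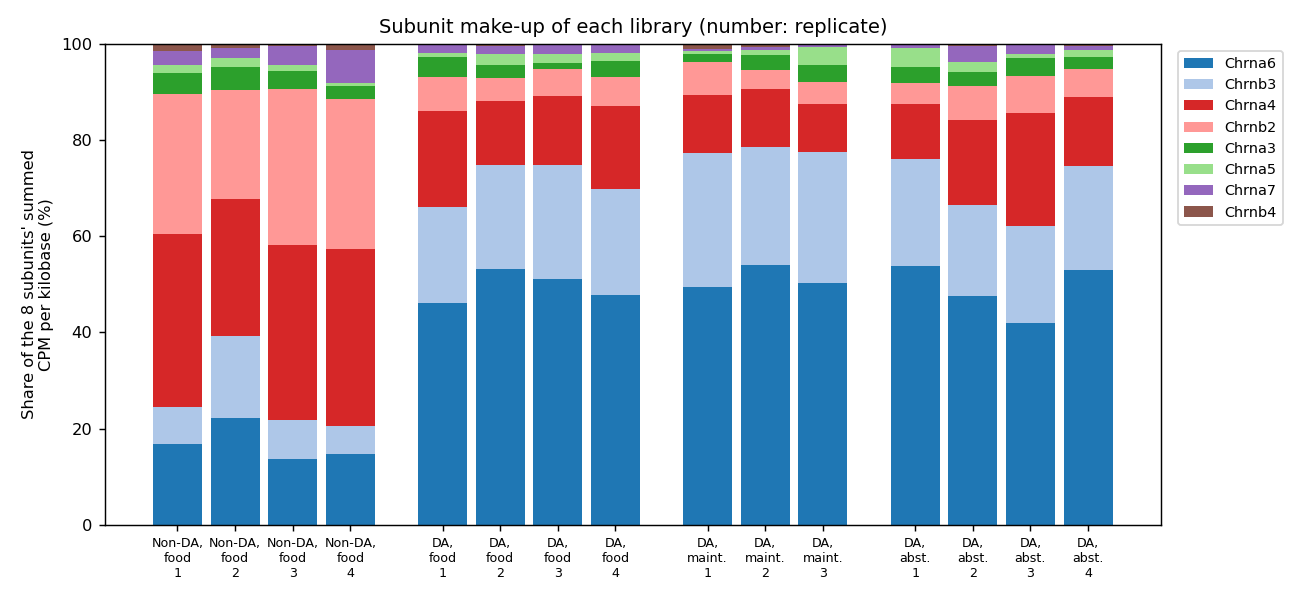
Stacked bars give each library's division of the summed CPM per kilobase of the 8 subunit genes (vertical axis, percent), with libraries grouped by population and stage along the horizontal axis. Chrna6 fills 49.5% on average in food-trained dopaminergic libraries and 16.8% in non-dopaminergic ones, where Chrna4 and Chrnb2 take 34.4% and 28.9%.

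Ratios within a library do not depend on its scaling. Chrnb2 over Chrna4 in CPM was 0.494 to 0.559 in food-trained dopaminergic, 0.464 to 0.586 in abstinence and 0.454 to 0.792 in maintenance libraries, all below the 1.11 to 1.25 of the non-dopaminergic libraries. Chrnb3 over Chrna6 was 0.643 to 0.734 in food-trained, 0.636 to 0.752 in abstinence and 0.713 to 0.892 in maintenance libraries, and 0.638 to 1.22 in non-dopaminergic ones. Chrna6 over Slc6a3 was 0.233 to 0.286 at food training, 0.246 to 0.285 at abstinence and 0.319 to 0.418 at maintenance, so the 3 maintenance libraries lay above the other 8 dopaminergic libraries. The same 3 libraries stand apart by GC slope, whose part in the ratio was not tested. The non-dopaminergic range of that ratio was 0.235 to 0.349.

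Other cholinergic genes were tested beside the subunits, where 3.63% of all 19786 tested genes were called higher in dopaminergic nuclei, 9.17% lower, and 4813 had an unadjusted p under 0.05. Of 13 chaperones and prototoxins, proteins that fold nicotinic receptors or bind them at the membrane, 3 were called higher in dopaminergic nuclei and 1 lower. Tmem35, which encodes the chaperone NACHO, was 2.47-fold higher (122.6 ± 13.4 against 50.1 ± 10.2 CPM, SD, n = 4 each; adjusted p = 0.00670, edgeR). Vsnl1, a calcium sensor that binds alpha4, was 2.49-fold higher (adjusted p = 0.00670, edgeR). Ly6h, a prototoxin and the list's most abundant member at 849.6 ± 172 CPM in dopaminergic nuclei, was 2.54-fold higher (adjusted p = 0.0157, edgeR). Ly6g6e had 0 counts in all 4 food-trained dopaminergic libraries and 0.501 to 1.98 CPM in the non-dopaminergic ones, so it was at least 14.4-fold higher there (floor of 3 counts per library; adjusted p = 0.00687, edgeR). Ric3, another receptor chaperone, had a log2 difference of 0.88 ± 0.30 (SE) and was not called (adjusted p = 0.0940, edgeR). In the same test 4 of the 10 pan-neuronal markers were called higher and 1 lower. Their non-dopaminergic levels were 37.0% to 228% of the dopaminergic ones (median 52.5%). Whether these cholinergic genes, Ache below included, differ beyond the neuronal content of the libraries was not tested.

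Of 7 genes of acetylcholine synthesis, transport and breakdown, Ache alone was called, 2.37-fold higher at 892.7 ± 121 against 379.3 ± 87.8 CPM (SD, n = 4 each; adjusted p = 0.00670, edgeR). It encodes acetylcholinesterase, which splits acetylcholine in the synapse. Of the 5 muscarinic receptors Chrm5, the M5 receptor of midbrain dopamine neurons, was called, at 41.7, 52.2, 39.0 and 97.8 CPM against 12.6, 9.10, 8.56 and 16.5 CPM. It was 4.96-fold higher (adjusted p = 0.00670, edgeR), and the groups did not overlap. Chrm2, the list's most abundant gene, stood at 81.4 ± 53.4 against 54.5 ± 7.26 CPM (SD, n = 4 each) and was not called (adjusted p = 0.576, edgeR). Of 8 further nicotinic subunit genes 3 passed the filter and 0 were called (0 at an unadjusted p under 0.05), with Chrna2, the most abundant, at 12.5 ± 8.77 against 6.33 ± 3.26 CPM. Of 13 genes that flank the members in the genome 12 were tested and 0 were called. Of these, 3 had an unadjusted p under 0.05, as did 4813 of all 19786 tested genes. Their median log2 fold change was -0.21, equal to that of all genes at 2 decimals.

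**Figure D3:**
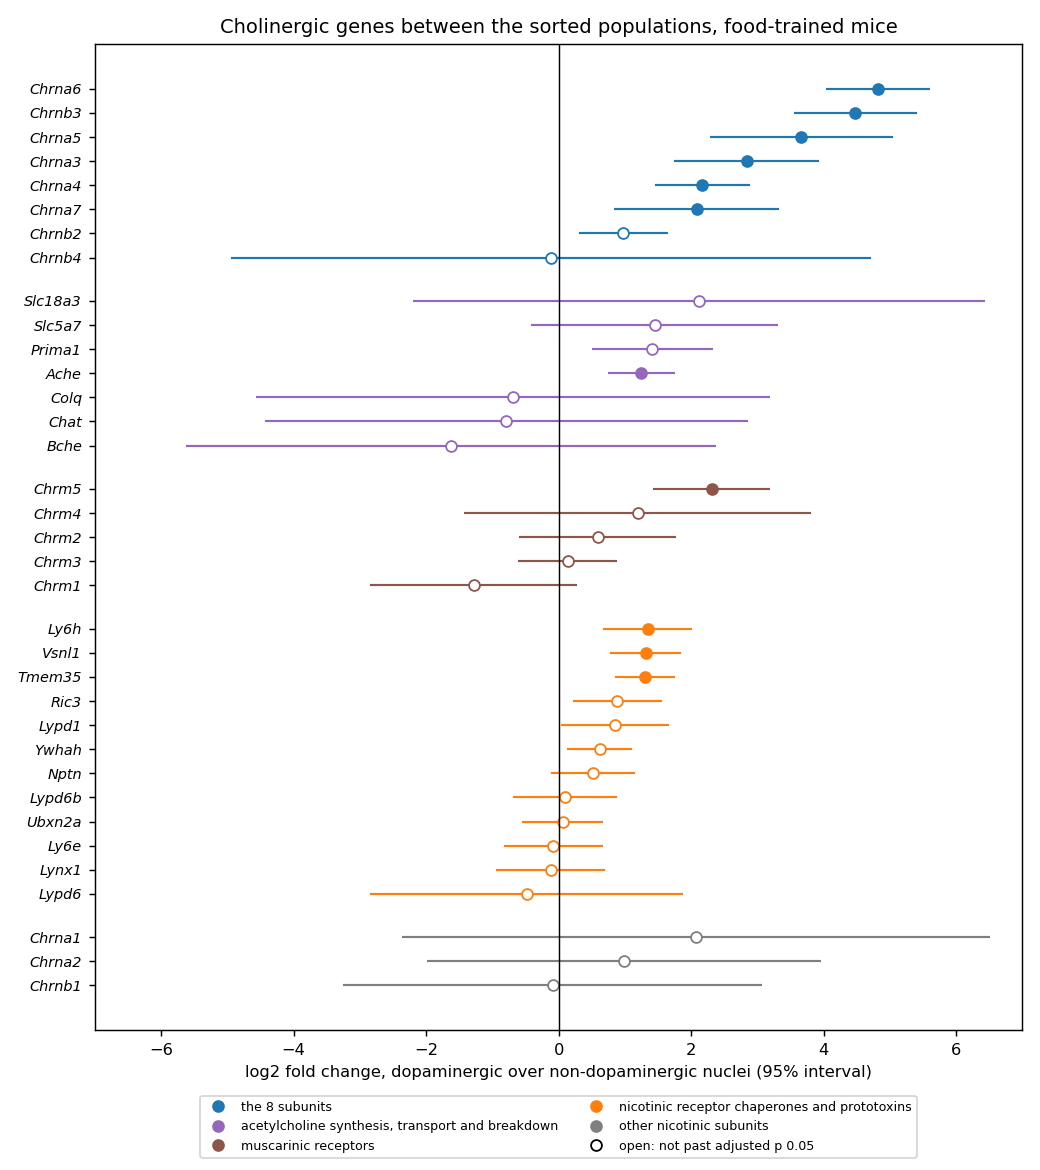
Log2 fold change of dopaminergic over non-dopaminergic nuclei in food-trained mice (horizontal axis) with 95% intervals (lines), 4 libraries each; filled points passed an adjusted p of 0.05. Ly6g6e is left out because its dopaminergic libraries have no counts. The top 6 subunits are filled, from Chrna6 at 4.82 to Chrna7 at 2.09, with Chrnb2 and Chrnb4 open.

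Between the stages, no subunit was called in any comparison by edgeR. The 3 contrasts were fitted together on the 11 dopaminergic libraries over 19060 genes, and they share groups, so their values are given side by side. At maintenance against food training 0 of 8 members were called (1 at an unadjusted p under 0.05), against 0.131% of all tested genes (2215 of 19060 at an unadjusted p under 0.05). At abstinence against food training 0 of 8 were called (0 at an unadjusted p under 0.05), where the background was 0% (0 of 19060 genes in edgeR, with 819 at an unadjusted p under 0.05, 140 called by DESeq2 and 0 by limma-voom). At abstinence against maintenance 0 of 8 were called (2 at an unadjusted p under 0.05), against 0.178% (1890 of 19060 at an unadjusted p under 0.05). For any difference among the stages 0 of 8 were called, against 0.0839%. DESeq2 and limma-voom likewise called 0 members in each of these comparisons. Over all genes DESeq2 called 977 of 18598 at maintenance against food training, 793 at abstinence against maintenance and 340 for any stage, and limma-voom 9, 30 and 12 of 19060.

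For Chrna6 the intervals of the fit of 11 libraries bound the size of a stage difference. Chrna6 stood at 851, 799 and 1094 CPM in maintenance replicates 1 to 3 and at 715, 871, 708 and 487 CPM in abstinence replicates 1 to 4, overlapping the food-trained range of 529 to 1176 CPM. Its fold was 1.16 at maintenance over food training (95% interval 0.742 to 1.80) and 0.875 at abstinence over food training (0.579 to 1.32). Differences of 2-fold in either direction lie outside both intervals, but with the term for the 4 low-slope libraries the maintenance value was -0.23 ± 0.53 (SE) on the log2 scale. Chrna4 stood at 329, 283 and 345 CPM at maintenance and at 242, 505, 623 and 205 CPM at abstinence, and both groups overlapped the food-trained range. Its fold over food training was 0.784 at maintenance (0.435 to 1.41) and 0.960 at abstinence (0.559 to 1.65). Chrnb2 stood at 260, 128 and 219 CPM at maintenance and at 124, 293, 289 and 120 CPM at abstinence. Its fold over food training was 0.965 at maintenance (0.537 to 1.74) and 0.978 at abstinence (0.568 to 1.68).

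In the edgeR fit Chrnb3 and Chrna7 were the members that reached an unadjusted p under 0.05, in comparisons with the maintenance libraries. With limma-voom these were Chrnb4, for maintenance and for abstinence over food training, and Chrnb3, but not Chrna7. Chrnb3 stood at 759, 570 and 933 CPM at maintenance and 468, 554, 532 and 315 CPM at abstinence. Every maintenance library was above every abstinence library, a separation whose share over all genes was not computed. The log2 difference of -0.70 ± 0.31 (SE) for abstinence over maintenance was not called (adjusted p = 0.492, edgeR). Chrna7 stood at 7.27, 7.42 and 12.6 CPM at maintenance, below the 19.9 to 42.8 CPM of food training, and at 8.84, 60.6, 31.3 and 7.44 CPM at abstinence. The abstinence libraries split into a high and a low pair, the low pair within the maintenance range. The log2 difference of Chrna7 at maintenance over food training was -1.61 ± 0.69 (SE; adjusted p = 0.404, edgeR), and at abstinence over maintenance 1.55 ± 0.68 (adjusted p = 0.491, edgeR), or 0.81 without abstinence replicate 2. The maintenance libraries are also those of low GC slope. In a fit of all 15 libraries with a term for the 4 low-slope libraries the maintenance value over food training was -0.20 for Chrna7 and -0.71 for Chrnb3, both uncalled. In the fit of 11 libraries these were -1.61 and 0.45. For abstinence over maintenance the fit with this term gave 0.46 for Chrnb3 and 0.15 for Chrna7, against -0.70 and 1.55 in the fit of 11 libraries. Correction for GC content left Chrna7 at -1.78 and Chrnb3 at 0.32 for maintenance over food training. It left Chrna7 at 1.72 and Chrnb3 at -0.57 for abstinence over maintenance. None of these values was called. These low-slope libraries were grouped from the data and the labels name no batch. The term rests on non-dopaminergic replicate 2 alone outside maintenance, which had the lowest Chrna7 (2.90 CPM) and the highest Chrnb3 (42.2 CPM) of its group.

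The scarce subunits allow wider differences. Chrna3 stood at 45.1, 66.6 and 111 CPM at maintenance and 69.2, 77.9, 90.5 and 33.5 CPM at abstinence, with a fold of 1.08 (95% interval 0.515 to 2.26) at maintenance over food training. Chrna5 ranged from 8.98 to 69.9 CPM among the 3 maintenance libraries and from 12.0 to 43.8 CPM at abstinence, and its interval at maintenance over food training was 0.441 to 3.70. Without maintenance replicate 3, the library at 69.9 CPM, its log2 difference went from 0.35 to -1.06 at maintenance over food training and from -0.33 to 1.09 at abstinence over maintenance, all uncalled. Chrnb4 had reads in all 3 maintenance (20.8, 13.2 and 1.05 CPM) and all 4 abstinence libraries (2.34, 9.43, 4.78 and 4.33 CPM), against 1 of 4 at food training. Its log2 difference at maintenance was 2.46 ± 2.04 (SE) and was not called (adjusted p = 0.780, edgeR). Without food-trained replicate 2, which leaves that group at 0, the adjusted p was 0.0651 at maintenance and 1.00 at abstinence over food training, and limma-voom gave 0.301 and 0.653 with all libraries. None of the 5 lists of other cholinergic genes and genomic neighbours had a gene called between the stages.

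**Figure D4:**
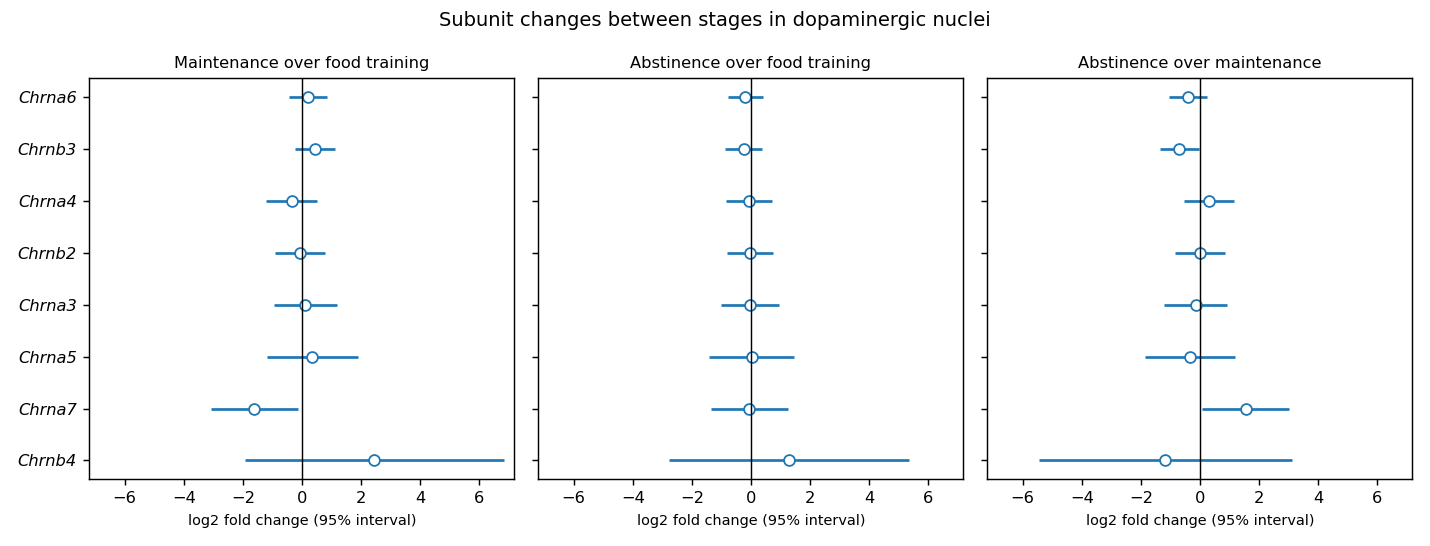
Log2 fold change of each subunit (horizontal axis) between stages in dopaminergic nuclei, with 95% intervals, from 1 fit of 11 libraries; all points are open because none passed an adjusted p of 0.05. Intervals are narrow for Chrna6 and Chrnb3 and widest for Chrnb4, and those of Chrna7 in both maintenance comparisons and of Chrnb3 for abstinence over maintenance lie off zero before adjustment.

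Over the 11 dopaminergic libraries the log2 CPM of Chrna6 and Chrnb3 had a Pearson r of 0.95 and those of Chrna4 and Chrnb2 an r of 0.91, the 2 highest among the members, while Chrna7 had 0.78 with Chrna4 and 0.66 with Chrnb2. Of 11935 genes compared, Chrnb3 was the closest to Chrna6, whereas at least 3 genes that are no members lay closer to Chrna4 (r 0.92 to 0.95) than Chrnb2 did. The median over the 21 pairs without Chrnb4 was 0.55 (0.10 to 0.95), and the 7 pairs with Chrnb4 lay between -0.35 and 0.09. Within the chromosome 9 cluster the r of Chrna3 and Chrna5 was 0.43. These libraries share a scaling and differ in stage and depth. Food-trained replicate 4 was the highest of its group for 7 of the 8 members and maintenance replicate 3 for 6. Abstinence replicate 4 was the lowest of its group for 7. The part of this in the r values was not tested.

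**Figure D5:**
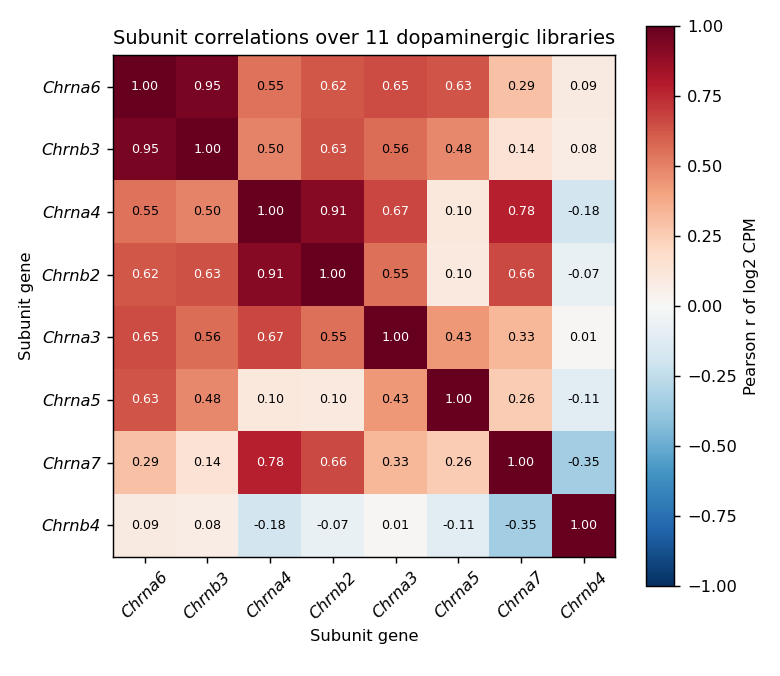
Pearson correlation of log2 CPM for each pair of subunit genes (both axes) over the 11 dopaminergic libraries, with r printed in each cell and shown by colour. The darkest cells off the diagonal are Chrna6 with Chrnb3 (0.95) and Chrna4 with Chrnb2 (0.91), and the Chrnb4 row stays near 0 or below.

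Over all 15 libraries and 11935 genes of sufficient level, the genes most like Chrna6 were Slc18a2 (r = 0.998), the vesicular monoamine transporter, Slc10a4 (0.996), a synaptic vesicle protein, and Slc6a3 (0.994). For Chrnb3 they were Slc18a2 (0.996), Chrna6 (0.994) and Slc10a4 (0.991). Those of Chrna4 were Atp9a (0.975), a phospholipid flippase, Ntsr1 (0.957), a neurotensin receptor, and Gfra1 (0.955), a GDNF co-receptor. These 15 libraries include both populations. Within the 11 dopaminergic libraries the genes most like Chrna6 were Chrnb3 (0.951), Slc18a2 (0.946) and Nell2 (0.893). For Chrnb3 they were Chrna6 (0.951), B3galt1 (0.917) and Lsamp (0.916), and for Chrna4 Sez6l (0.95), App (0.940) and Os9 (0.919).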

How the data were processed

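The deposited values are whole-number counts of reads per gene in 15 libraries, made by the authors from libraries of the NEBNext Single Cell/Low Input kit, per the labels' protocols. The submitters' processing notes name Trim Galore 0.6.7, cutadapt 1.18, STAR 2.7.10a, StringTie 2.1.5 and DESeq2 1.38.3 with mm10 and GRCm38, and the counting strand is not given in the sources used here. A second deposited table of 10 columns held 0 cells that differed from these counts and was not used.

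The main test was edgeR 4.0.16 (R 4.3.3; filterByExpr, TMM scaling, quasi-likelihood test, Benjamini-Hochberg threshold 0.05), fitted on 8 food-trained libraries for the population and on 11 dopaminergic libraries for the stages. CPM in the text use TMM factors of all 15 libraries. Alternatives used DESeq2 1.42.0, limma 3.58.1, other scalings, filters and GC correction (84.9% and 85.3% of tested genes had a GC value), and left out each library in turn. Gene lengths and positions come from GENCODE M21 and promoters from RefSeq. Reads carry no molecular identifiers, so limits at a count of 0 cover counting error only.

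All 8 members are described, with other listed cholinergic genes named when past the threshold or most abundant in their list, except Ric3, which was chosen after its values were seen. The genes correlated over the 11 dopaminergic libraries were also named after their values were seen. The most abundant gene of the list of genomic neighbours is not reported here. The 3 genes most like each of the 3 most abundant members were named by Pearson r. Members, lists and tests were chosen with earlier results of these data known. No 2 libraries held identical values.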

Additional observations from a re-analysis of the deposited data

Results flagged for a closer look

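In each of the 24 sets of 4 libraries (8 members in 3 groups), 1 library was set against the other 3, and 3 sets held a library far from its group by Dixon's 95% critical value, which chance alone passes in about 1 in 20 sets. Chrnb2 was 336 CPM in food-trained dopaminergic replicate 4, with the next library at 178 CPM. Chrnb3 was 42.2 CPM in non-dopaminergic replicate 2, with the next at 21.1 CPM. Chrnb4 was 8.40 CPM in food-trained dopaminergic replicate 2 and at 0 in the other 3 libraries.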

How the results depend on the processing

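In the population comparison 5 to 7 members were called under the 20 alternatives. Chrna6, Chrnb3, Chrna4 and Chrna3 were called higher in all 20, with adjusted p at most 0.00952, 0.00952, 0.0249 and 0.0290. Chrna7 was called in 11 of 20 (adjusted p 0.00143 to 0.108) and Chrnb2 in 7 of 20 (0.0115 to 0.579), among them upper quartile scaling, a minimum of 10 counts, DESeq2 and GC correction. Chrnb4 was called lower by limma-voom with quality weights (adjusted p = 0.0261) and when dopaminergic replicate 2 was left out (0.0133), so the number of members called lower was 1 in those 2 settings and 0 to 1 over the fits without a library. Leaving out dopaminergic replicate 3 and non-dopaminergic replicate 2 together, an alternative chosen after seeing the data, left 5 members called.

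Replicate numbers are shared between the populations, and the labels do not say whether same-numbered libraries come from the same sorted pool. Same-numbered libraries correlated at 0.0347 to 0.0874, the highest of their row for dopaminergic replicates 1, 2 and 3, a hint from the data and under the 0.1 taken here as pairing. Dopaminergic replicate 4 correlated more with non-dopaminergic replicate 1 (0.0604) than with its own number (0.0415). With the replicate block 5 members were called: Chrna5 (adjusted p = 0.0577) and Chrna7 (0.0675) were not and Chrnb2 (0.0468) was, and 775 genes were called in place of 2534. With the block and GC correction these were 0.0514, 0.0635 and 0.0229, with 884 genes. Over the stages the block called 0 members.

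No member was called between stages under any of the alternatives run. Genes called in all ranged from 775 to 4266 for the population, 0 to 977 for maintenance against food training, 0 to 140 for abstinence against food training, 1 to 793 for abstinence against maintenance and 0 to 340 for any stage, the highest with DESeq2 except for the population (limma-voom). The term for the 4 low-slope libraries, a grouping taken from the data and not a labelled batch, left 0, 1 and 0 genes in the 2 maintenance comparisons and the test of any stage. The correlation of Chrna6 and Chrnb3 was 0.94 and that of Chrna4 and Chrnb2 was 0.95 as Spearman's rho.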
